A study of Mus musculus with 24 samples.

Results

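The 10 genes described here are scavenger receptors and surface markers of macrophages: Marco, Msr1, Cd36, Scarb1, Stab1, Cd163, Mrc1, Cd68, Csf1r and Emr1. They were listed by name and matched to the gene name given for each probe in the scanner files, which found 17 probes for all 10 of them among 21597 gene symbols on the array. All 10 were among the 17347 genes tested. Msr1 and Mrc1 were not well above background in any B cell channel, and Cd163 was so in both channels of a group only in EPM, so these 3 passed the filter on dim probes through macrophages alone.

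Gene expression was measured on 12 Agilent dual-colour arrays with RNA from C57BL/6 cells of 3 kinds. EPM were peritoneal macrophages elicited with thioglycollate broth and kept overnight as adherent cells, BMDM were macrophages grown from bone marrow with L-cell conditioned medium as the source of M-CSF, and the B cells were resting splenic cells left after magnetic removal of cells bearing CD43 or CD11b. Each kind was sampled after 1 h and 12 h with Kdo2 lipid A (KLA), a bacterial lipid A that activates the receptor TLR4, and in 2 control conditions. The controls were untreated cells (EPM and B cells) or DMSO for 1 h (BMDM), and DMSO for 12 h in all 3.

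Every array carried 2 samples of 1 condition, named biological replicates by the labels, 1 in the Cy5 channel and 1 in the Cy3 channel, which gave 24 channels in 12 groups with n = 2 each. The study's methods speak of triplicates, how far the 2 channels are independent is not given in the sources used here, and every SE and p-value below takes them as independent. Each cell type was on a slide of its own and each condition on an array of its own, so slide and cell type, and array and condition, cannot be told apart. Levels below are normalized log2 intensities of the gene's brightest probe, with the Cy5 channel given before the Cy3 channel. A change is a difference in log2 intensity between groups with its standard error (SE), and it was called when the limma p adjusted over all genes tested was under 0.05. The small number of arrays limits the precision. Levels of different members are not compared because probes differ in brightness, and for marker lists the brightest probe is named only to describe the sum.

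Scavenger receptors are membrane proteins that bind modified lipoproteins, bacteria, apoptotic cells and other polyanionic or lipid ligands, and take them up. The class A receptors Marco and Msr1 are trimers with collagen-like stalks, the class B receptors Cd36 and Scarb1 span the membrane at both ends and handle fatty acids and lipoproteins, Stab1 is a large endocytic receptor, and Cd163 takes up haemoglobin bound to haptoglobin. The other members are used to recognise macrophages: Mrc1 is the mannose receptor, Cd68 a glycoprotein of late endosomes and lysosomes, Csf1r the receptor for M-CSF, and Emr1 the gene for the F4/80 antigen.

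The cell type labels were compared with marker genes outside the members. All 10 macrophage markers were well above background in every EPM and BMDM channel, where their summed intensity was 536000 to 697000 with Lyzs or Ctsd the brightest. In B cell channels 7 or 8 of the 10 were, with a summed intensity of 12200 to 15700, and Fcgr1 and Fcgr3 were not well above background in untreated B cells. All 10 B cell markers were well above background in every B cell channel, with a summed intensity of 282000 to 349000 and Cd79b the brightest. In macrophage channels 5 to 7 of these 10 were, with a sum of 20500 to 68100 carried mainly by Blnk, an adaptor that macrophages also express. The labels of macrophages and of B cells were met by these markers, which do not separate EPM from BMDM.

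Markers of other cells differed between the cultures. All 6 stromal and mesothelial markers were well above background in every EPM channel, with Col1a2 the brightest, and the sums were 52500 and 57900 in untreated cells, 53900 and 55500 after KLA for 1 h, 95300 and 84800 after DMSO for 12 h, and 79400 and 76600 after KLA for 12 h. The sums were 3870 to 5990 in BMDM, with 3 to 5 of 6 well above background, and 530 to 592 in B cells, with 2 of 6. Neutrophil markers, with 6 or 7 of 7 well above background and S100a9 the brightest, summed to 14400 and 15000 in BMDM after DMSO for 1 h, 21100 and 24800 after KLA for 1 h, 10000 and 11700 after DMSO for 12 h, and 19800 and 22800 after KLA for 12 h. They summed to 1120 to 2050 in EPM, with 4 of 7 well above background, and 468 to 611 in B cells. Of 6 dendritic cell markers 5 were well above background in EPM, where Itgax was the brightest and the sums were 9450 to 14200 except after KLA for 12 h, where they were 5100 and 5200; the sums were 872 to 1240 in BMDM and 11300 to 24200 in B cells, there mainly from Ccr7. T cell markers, with 3 to 8 of 8 well above background, summed to 1000 to 1290 in macrophages and 1720 to 4010 in B cells, where Lck was the brightest. Mast cell and eosinophil markers, with 3 or 4 of 6, summed to 447 to 688 over all channels. The part of these other cells in the results below was not tested, and fewer cells of a type and less RNA per cell cannot be told apart in such samples.

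For 2 of the B cell conditions the deposited table and the scanner files go against each other. In the authors' table the columns named KLA 1 h and DMSO 12 h of B cells had correlations across probes of -0.69 to -0.75 with the scanner channels of the same name, and of 0.96 to 0.97 with those of the other condition, after each probe was centred within its cell type. The labels of the scanner files are used here, and B cell changes are given also with these 2 conditions exchanged.

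KLA reached both kinds of macrophage. In EPM the cytokine gene Tnf measured 9.60 and 9.62 in untreated cells and 16.31 and 16.37 after KLA for 1 h, a 106-fold rise (adjusted p = 1.2e-20). In BMDM it measured 12.27 and 12.32 with DMSO and 16.16 and 16.32 with KLA, a 15.4-fold rise (adjusted p = 1.86e-17). Cxcl10, which encodes a chemokine, was 238-fold higher in EPM and 99.5-fold higher in BMDM at 12 h, and Isg20, an exonuclease gene induced by interferon, 136-fold and 98.2-fold. In B cells 0 of the 4 control genes were called at 1 h by limma (1 at an unadjusted p under 0.05), though Tnf was with the dye as a block (0.19, adjusted p = 0.0394), and at 12 h Cxcl10 rose from background (6.11 and 6.23) to 7.70 and 7.69 and Tnf from 7.23 and 7.35 to 7.62 and 7.81. With array means as samples these 12 h changes were 1.24 for Cxcl10 and -0.10 for Tnf, and neither was called.

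Before KLA, the class A scavenger receptor Marco differed most between the 2 kinds of macrophage among the 10 members. It measured 12.07 and 12.06 in untreated EPM, 16.91 and 16.56 in BMDM with DMSO for 1 h, and 7.46 and 7.37 in untreated B cells. BMDM were thus above EPM and EPM above B cells with no overlap, and EPM were lower than BMDM by a factor of 25.4 (log2 difference -4.67, SE 0.12, adjusted p = 2.78e-16). Msr1, also of class A, measured 12.39 and 12.42 in EPM and 12.86 and 12.81 in BMDM, 1.35-fold lower in EPM, and stayed at background in B cells.

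Among the markers, Csf1r and Emr1 were the next most different, both lower in EPM. Csf1r measured 13.67 and 13.55 in EPM and 15.06 and 15.09 in BMDM, and the factor between them was 2.77 (log2 difference -1.47, SE 0.06, adjusted p = 7.01e-14). BMDM were grown in M-CSF, the ligand of Csf1r, and the part of this in the difference was not tested. Emr1 measured 15.09 and 14.93 in EPM and 16.59 and 16.41 in BMDM (-1.50, SE 0.10, adjusted p = 3.25e-10), and its other probe gave a difference of -3.12. Stab1 measured 12.50 and 12.51 in EPM against 13.70 and 13.64 in BMDM, and the mannose receptor gene Mrc1 12.05 and 11.80 against 12.88 and 12.71. Scarb1, the receptor for high-density lipoprotein, measured 11.00 and 10.99 against 12.14 and 12.28. These 3 were lower in EPM by factors of 2.24, 1.83 and 2.32, without overlap of the channels.

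Cd36 and Cd68 went the other way. Cd36, which takes up fatty acids and oxidized lipoprotein, measured 15.02 and 15.06 in EPM and 13.97 and 14.05 in BMDM, a 2.05-fold higher level in EPM (log2 difference 1.03, SE 0.06, adjusted p = 9.53e-11). Cd68 had a mean of 15.98 (SD 0.02, n = 2) in EPM and measured 14.90 and 14.68 in BMDM, 2.29-fold higher (1.19, SE 0.08, adjusted p = 6.38e-10). Cd163 was dim in all groups: it measured 6.70 and 6.64 in EPM, while neither BMDM channel (6.20 and 6.19) was well above background, so its level in EPM was at least 1.39-fold that in BMDM. In all, 3 members were called higher in EPM than in BMDM, where 28.5% of all genes tested were, and 7 lower, where 29.3% were. Cd163, among the 3, entered through EPM alone and had to differ, so nothing is read from the count. With array means as samples, where the 2 control arrays of a cell type stand for its level, 7 of the 10 were called, against 3397 of 17347 genes, and the calls of Emr1 (-1.77, adjusted p = 0.326), Msr1 (-0.29, adjusted p = 0.175) and Cd163 (0.29, adjusted p = 0.18) were lost.

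B cells held the lowest level of 9 members, while no order is given for Cd163, which was at background in BMDM and B cells. All 10 were called higher in EPM than in B cells, against 38.6% of all genes tested, and all 10 higher in BMDM than in B cells, against 39.1%; since members were picked as macrophage genes, nothing is read from these counts. In untreated B cells Cd36 measured 8.87 and 8.90, Scarb1 9.60 and 9.33, Cd68 7.81 and 7.82 and Marco 7.46 and 7.37, all well above background. Scarb1 was 2.89-fold higher in EPM and 6.7-fold higher in BMDM, and Csf1r, which was close to background in B cells, differed by 7.16 and 8.63 on the log2 scale, and with another probe by 5.02 and 6.85. Its remaining probe was at background in untreated B cells, so its fitted differences of 1.20 and 2.33 are neither exact nor bounds. Msr1 was at least 79.5-fold higher in EPM and 107-fold in BMDM, and Mrc1 at least 57.1-fold and 104-fold, because the B cell channels were at background (5.89 to 6.03 for Msr1 and 5.80 to 6.02 for Mrc1 over all 8). No fold is given for Cd163 in BMDM against B cells. Its call there (0.18, adjusted p = 0.0371) was lost without the untreated B cell Cy5 channel (0.08, adjusted p = 0.39) or without either BMDM channel (0.18 each, adjusted p 0.107 without Cy5 and 0.0904 without Cy3).

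**Figure D1:**
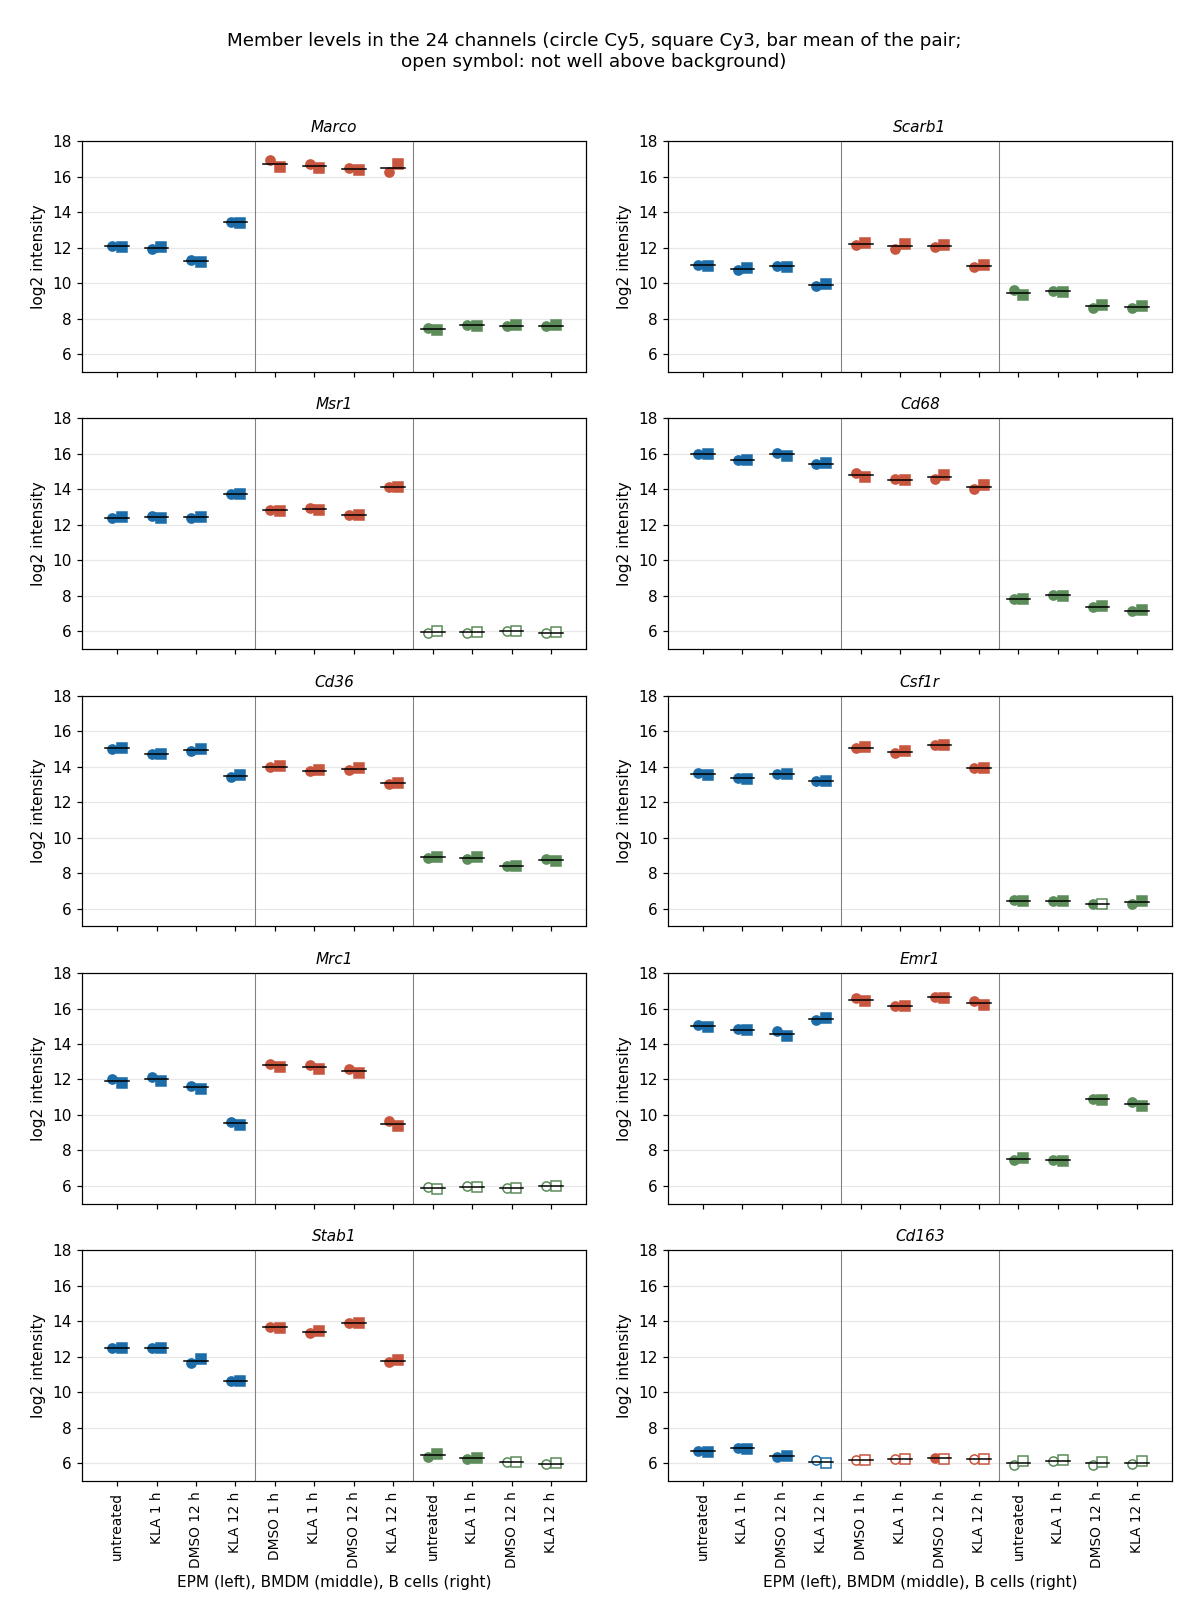
Normalized log2 intensity of the 10 members in each of the 24 channels, 1 panel per gene, with points for the Cy5 and Cy3 channels of each group (n = 2). Marco in BMDM stays between 16.25 and 16.91 in all 8 channels, whereas in EPM it runs from 11.16 to 13.43.

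After 12 h with KLA, both class A receptors rose in EPM, whereas in BMDM Msr1 alone was called. Marco measured 11.28 and 11.16 in EPM with DMSO for 12 h and 13.43 and 13.40 with KLA. The channels did not overlap and the rise was 4.56-fold (log2 change 2.19, SE 0.12, adjusted p = 2.07e-11). In BMDM Marco measured 16.50 and 16.40 with DMSO and 16.25 and 16.71 with KLA, so the groups overlapped (0.03, SE 0.12, 95% interval -0.23 to 0.28, adjusted p = 0.865). That BMDM value was called higher with loess only (0.41, adjusted p = 0.00593) and in the authors' table (0.64, adjusted p = 0.000241). The EPM channels with KLA were still below every BMDM channel. The scanner software flagged 0 spots as saturated, and whether Marco could read higher in BMDM was not tested.

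Msr1 measured 12.41 and 12.43 in EPM with DMSO and 13.72 and 13.75 with KLA, a 2.49-fold rise (1.31, SE 0.05, adjusted p = 2.93e-13). In BMDM it measured 12.58 and 12.55 with DMSO and 14.13 and 14.12 with KLA, a 2.95-fold rise (1.56, SE 0.05, adjusted p = 1.76e-14). The receptor thus rose in both macrophages with no overlap of channels. Its 2 other probes rose in both as well, by 1.57 and 0.89 in EPM and by 1.39 and 1.70 in BMDM.

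The class B receptors fell in both macrophages at 12 h. Cd36 measured 14.90 and 15.00 in EPM with DMSO and 13.41 and 13.55 with KLA, a decrease by a factor of 2.77 (-1.47, SE 0.06, adjusted p = 5.61e-13). In BMDM it measured 13.79 and 13.91 with DMSO and 13.04 and 13.09 with KLA, a decrease by a factor of 1.73 (-0.79, SE 0.06, adjusted p = 3.22e-09). Its other probe fell by 1.56 in EPM and by 0.92 in BMDM. Scarb1 went from 10.97 and 10.92 to 9.84 and 9.94 in EPM, and from 12.04 and 12.15 to 10.93 and 11.01 in BMDM, factors of 2.08 and 2.18. For both genes the KLA channels lay below the control channels. With array means as samples the calls of Cd36 in BMDM (-0.87, adjusted p = 0.0509) and of Scarb1 in EPM (-1.08, adjusted p = 0.104) and BMDM (-1.18, adjusted p = 0.059) were lost.

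Mrc1 and Stab1, endocytic receptors for glycans and for modified lipoprotein and matrix ligands, had the largest decreases among the members in BMDM. Mrc1 measured 12.59 and 12.35 in BMDM with DMSO and 9.65 and 9.36 with KLA, a factor of 7.82 (-2.97, SE 0.11, adjusted p = 5.95e-14). In EPM it measured 11.64 and 11.47 with DMSO and 9.59 and 9.46 with KLA, a factor of 4.09 (-2.03, SE 0.11, adjusted p = 2.2e-11). The controls of the 2 cell types were apart, while the KLA channels of EPM lay within the range of those of BMDM. Stab1 measured 13.90 and 13.92 in BMDM with DMSO and 11.71 and 11.83 with KLA, a factor of 4.41 (-2.14, SE 0.07, adjusted p = 1.05e-14). In EPM it went from 11.63 and 11.86 to 10.62 and 10.64, a factor of 2.16 (-1.11, SE 0.07, adjusted p = 2.17e-10). The other Stab1 probe gave -0.62 in BMDM and -0.31 in EPM, both called.

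Csf1r fell in both macrophages and more in BMDM. It measured 15.20 and 15.22 in BMDM with DMSO and 13.95 and 13.94 with KLA, a factor of 2.4 (-1.26, SE 0.06, adjusted p = 5.05e-13). In EPM it measured 13.60 and 13.61 with DMSO and 13.22 and 13.19 with KLA (-0.40, SE 0.06, adjusted p = 7.45e-06). The EPM decrease was not called with loess only (-0.07), in the authors' table (-0.15) or with the other 2 Csf1r probes (-0.28, adjusted p = 0.0841, and -0.13, adjusted p = 0.487). The BMDM decrease was called with both other probes (-1.22 and -0.49). Cd68 went from 16.05 and 15.91 to 15.43 and 15.49 in EPM and from 14.61 and 14.79 to 14.00 and 14.23 in BMDM, factors of 1.44 and 1.5, and its BMDM call was lost in the authors' table (-0.17, adjusted p = 0.135).

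Emr1 rose in EPM. It measured 14.73 and 14.44 with DMSO and 15.34 and 15.46 with KLA, a 1.76-fold rise (0.82, SE 0.10, adjusted p = 1.46e-06), and its other probe rose by 1.30. The call was lost with array means as samples (0.61, adjusted p = 0.871). In BMDM it measured 16.65 and 16.60 with DMSO and 16.43 and 16.17 with KLA, which was called lower (-0.33, SE 0.10, adjusted p = 0.00766), but the direction in BMDM depended on the probe and the normalization. The other probe gave 0.27 (adjusted p = 0.0316), loess only 0.10 (adjusted p = 0.39) and the deposited values 0.32 (adjusted p = 0.0107), and without the KLA 12 h Cy3 channel the value was -0.20 (adjusted p = 0.143).

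Cd163 measured 6.35 and 6.42 in EPM with DMSO for 12 h, and neither KLA channel (6.17 and 6.01) was well above background. The decrease was at least 1.2-fold (-0.29, SE 0.07, adjusted p = 0.0027) and was not called without the KLA 12 h Cy3 channel (-0.21, adjusted p = 0.0554). In BMDM it was near background throughout (-0.04, adjusted p = 0.628). Cd163 passed the filter only through EPM groups other than KLA for 12 h, so nothing is read from its EPM call.

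Counted together at 12 h in EPM, 3 members rose, where 19.6% of all genes tested did, and 7 fell, where 34.3% did. In BMDM 1 rose, where 28.6% did, and 7 fell, where 36.3% did. The median change of the members was -0.46 in EPM and -0.69 in BMDM, and that of all genes -0.06 and -0.03. Cd163, among the 7 that fell in EPM, passed the filter only through EPM groups other than KLA for 12 h. Members were chosen with earlier results of these data known, so nothing is read from these counts or medians. With each array taken as a single sample, 4 members were called in EPM (Marco, Msr1, Cd36 and Mrc1), where 1998 of 17341 genes were, and 4 in BMDM (Msr1, Mrc1, Stab1 and Csf1r), where 3650 of 17342 were. The KLA side is then 1 array, and the spread comes from control arrays of different times.

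**Figure D2:**
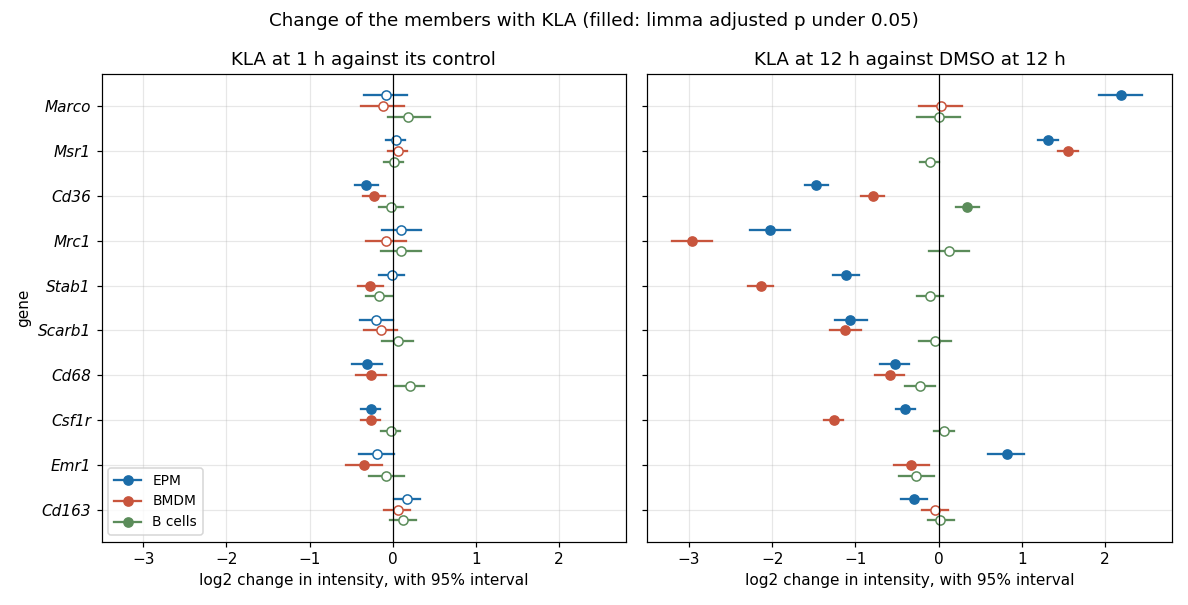
Log2 change of each member, KLA at 1 h against untreated cells (EPM and B cells) or DMSO for 1 h (BMDM) and at 12 h against DMSO for 12 h, with 95% confidence intervals from limma (n = 2 channels per group). At 12 h Marco reaches 2.19 in EPM and 0.03 in BMDM, and Mrc1 lies at -2.03 and -2.97; the small BMDM change of Emr1 (-0.33) takes the other direction with loess only and in the authors' table.

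The difference between EPM and BMDM in the 12 h change was tested directly. For Marco the change was higher in EPM by 2.16 (SE 0.17, adjusted p = 9.37e-09), and for Emr1 by 1.15 (SE 0.14, adjusted p = 2.81e-06). Stab1, Mrc1 and Csf1r fell less in EPM, with differences of 1.03, 0.93 and 0.87 and adjusted p of 1.89e-07, 0.000105 and 5.68e-08. Cd36 fell more in EPM (-0.68, SE 0.09, adjusted p = 6.55e-06), and the rise of Msr1 was smaller there (-0.25, SE 0.08, adjusted p = 0.0145). That last call was lost with an offset of 16 in the background correction, with processed signals and with loess only. Another Msr1 probe gave 0.18 (adjusted p = 0.0709), and the remaining Msr1 probe gave -0.81 (adjusted p = 0.000226). Scarb1, Cd68 and Cd163 were not called (0.07, 0.06 and -0.25), but Scarb1 was with loess only (0.35, adjusted p = 0.0305), and Cd163 was with the dye as a block (-0.25, adjusted p = 0.0364) and without the EPM KLA 12 h Cy5 channel (-0.33, adjusted p = 0.0276). With the dye as a block, all genes called rose from 4020 higher and 4271 lower to 4791 and 5235 of 17335. Of the members 5 were thus called higher without the block, where 23.2% of all genes tested were, and 2 lower, where 24.6% were. With loess only 6 were called higher and 1 lower, but so were 7030 and 2142 of 17337 genes, so this split depends on the scaling between arrays. With array means as samples 0 were called in limma (3 at an unadjusted p under 0.05), where 49 genes were called higher and 58 lower of 17336.

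At 1 h the members moved little. In EPM 0 were called higher, where 9.39% of all genes tested were, and 3 lower, where 19.7% were, by limma (1 and 4 at an unadjusted p under 0.05). These were Cd36, from 15.02 and 15.06 to 14.71 and 14.74 (-0.32, adjusted p = 0.000912), Cd68, from a mean of 15.98 to 15.67 and 15.68 (-0.31, adjusted p = 0.0097), and Csf1r, from 13.67 and 13.55 to 13.36 and 13.33 (-0.26, adjusted p = 0.00139). The KLA channels of these 3 genes lay below their control channels. Marco (11.93 and 12.03 after KLA), Msr1 (12.48 and 12.41), Mrc1 (12.13 and 11.94) and Stab1 (12.48 and 12.52) had changes of -0.08, 0.04, 0.10 and -0.01, and none was called, but the other Stab1 probe was called lower (-0.19, adjusted p = 0.0362). The Cd68 call was lost without the KLA 1 h Cy5 channel (-0.30, adjusted p = 0.0567) and without the untreated Cy3 channel (-0.29, adjusted p = 0.0597), and in the authors' table its value was 0.02. The Csf1r call was lost with both other probes (-0.13, adjusted p = 0.531, and -0.00, adjusted p = 0.996), with the mean of its probes (-0.13, adjusted p = 0.333) and with processed signals (-0.28, adjusted p = 0.0727).

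In BMDM at 1 h, 0 members were called higher by limma, where 11% of all genes tested were (0 at an unadjusted p under 0.05), and 5 were called lower, where 17.6% were. These were Emr1 (-0.35), Stab1 (-0.27), Cd68 (-0.26), Csf1r (-0.26) and Cd36 (-0.23), with adjusted p of 0.0147, 0.00855, 0.0279, 0.00148 and 0.0117. Emr1, for example, measured 16.59 and 16.41 with DMSO and 16.16 and 16.15 with KLA, while its other probe gave 0.01. The other 2 Csf1r probes gave -0.14 (adjusted p = 0.514) and -0.01 (adjusted p = 0.98), and the mean of its probes -0.14 (adjusted p = 0.322), none of them called. With loess only and in the deposited values 0 members were called in BMDM (1 at an unadjusted p under 0.05 each), and in EPM 1 each (in the latter Cd163, higher). Of all genes, 1705 were called higher and 3721 lower of 17345 in BMDM with loess only and 2001 and 1935 of 17152 in the deposited values, and in EPM 1552 and 3852 of 17347 and 1701 and 1984 of 17152, so these small decreases were not kept across ways of processing. Without the KLA 1 h Cy5 channel 1 call was left in BMDM, without DMSO 1 h Cy5 2 calls, and without KLA 1 h Cy3 3 calls. The 1 h change was taken against untreated cells in EPM and against DMSO for 1 h in BMDM, so the controls were unlike. The difference between EPM and BMDM in the 1 h change was called for 0 members by limma (1 at an unadjusted p under 0.05), where 9.56% of all genes tested were called. With the dye as a block Stab1 was called (0.26, adjusted p = 0.0356), and all genes called rose from 1658 to 3102. The other Stab1 probe gave -0.01 in limma without the block (adjusted p = 0.982).

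In B cells KLA left most members without a call. At 1 h 0 members were called by limma (2 at an unadjusted p under 0.05), where 5.17% of all genes tested were called in either direction. At 12 h 1 was called, where 5.29% were: Cd36 measured 8.41 and 8.38 with DMSO and 8.79 and 8.69 with KLA, a 1.27-fold rise (0.34, SE 0.06, adjusted p = 0.00219), and its other probe gave 0.32 (adjusted p = 0.0348). With the dye as a block Emr1 was called as well (-0.27, adjusted p = 0.0243), where 1937 of 17346 genes were. The other Emr1 probe gave -0.05 in limma without the block (adjusted p = 0.89). These results depended on the labels, since with the 2 conflicting conditions exchanged 6 members were called at 1 h, where 8218 of 17344 genes were, and 4 at 12 h, where 8526 of 17347 were, and the Cd36 value at 12 h was -0.13. The exchange also turned 3 of the control genes: Tnf to -1.06 at 1 h and -0.82 at 12 h, Il1b to -1.06 and -1.03 or lower, and Cxcl10 at 1 h to -0.57 or lower, since the channels then taken as KLA were at background for these 2 genes. Cxcl10 was still called higher at 12 h (0.86), and Isg20 was called higher at both times (0.21, adjusted p = 0.0107, and 0.23, adjusted p = 0.00525).

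Emr1 differed between B cell arrays. It measured 7.48 and 7.56 in untreated cells, 7.47 and 7.41 after KLA for 1 h, 10.92 and 10.84 after DMSO for 12 h and 10.71 and 10.51 after KLA for 12 h. The 4 channels labelled 12 h were thus all above the other 4, with and without KLA. Its other probe was at background in the first 4 channels (5.85 to 6.01) and well above it in the 12 h channels (6.29 to 6.43). With the labels exchanged the Emr1 change with KLA was 3.37 at 1 h and 3.17 at 12 h. The 10 macrophage markers outside the members differed by less on the same arrays, and of these 3 had both 12 h group means above both others. Group means in the same order were 10.66, 10.95, 11.87 and 11.72 for Ctsd, 11.30, 11.46, 12.16 and 12.02 for Ctsb and 8.31, 8.13, 8.82 and 8.57 for Lyzs. Both 12 h means were below both others for Lgmn (12.17, 12.28, 11.68 and 11.54) and, by less, for C1qb and Aif1, while Cybb had no such order. The Fc receptor genes Fcgr1 and Fcgr3 were at background throughout, and C1qa was well above background in 1 untreated channel only. Scarb1 and Cd68 were lower in the 12 h channels (8.59 to 8.74 and 7.14 to 7.44) than in the others (9.33 to 9.60 and 7.81 to 8.07). Summed T cell markers were 1720 to 2090 in the first 4 B cell channels and 3400 to 4010 in the 12 h channels. Dendritic cell markers summed to 22600 to 24200 and to 11300 to 12800. Neither the difference between times nor the part of these other cells was tested.

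Lists of related genes are described at 12 h by their counts of called genes, beside 19.6% higher and 34.3% lower over all genes tested in EPM and 28.6% and 36.3% in BMDM, and no list is read as differing from these shares. Of 13 other scavenger receptors tested, 3 rose and 6 fell in EPM (median -0.15) and 5 rose and 6 fell in BMDM (median 0.01, and -0.03 with loess only). Scarf1, a scavenger receptor also of endothelial cells, went from 8.46 and 8.42 to 11.70 and 11.56 in EPM, a 9.11-fold rise, and rose 2.86-fold in BMDM from 11.30 and 11.12 to 12.78 and 12.68. Cxcl16, a membrane-bound chemokine that binds oxidized lipoprotein, rose 7.06-fold in EPM and 2.03-fold in BMDM. Lrp1, an endocytic receptor of the low-density lipoprotein receptor family, fell from 13.76 and 13.64 to 12.02 and 12.10 in EPM and from 13.07 and 13.36 to 11.00 and 11.50 in BMDM (-1.64 and -1.97). Cd5l, a secreted protein with scavenger receptor domains, fell by 1.47 in EPM, and the collectin Colec12 fell by 1.18 in BMDM.

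Of 13 C-type lectin receptors tested, the family that Mrc1 belongs to, 5 rose and 5 fell in EPM (median -0.04, and 0.03 after centring on the median gene) and 4 rose and 5 fell in BMDM (median 0.01, and -0.08 with loess only). Clec4e, which encodes Mincle, a receptor for mycobacterial glycolipid, went from 9.27 and 9.35 to 16.17 and 15.90 in EPM (106-fold) and from 10.01 and 9.78 to 15.22 and 15.05 in BMDM (37.8-fold). Cd302 rose 1.91-fold in EPM, and Ly75, the gene for DEC-205, 2.43-fold in BMDM. Cd93 fell from 14.36 and 14.43 to 11.46 and 11.55 in EPM and from 14.69 and 14.72 to 12.22 and 12.19 in BMDM, and the galactose-type lectin Mgl1 fell in both (-2.66 and -2.06).

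Among 20 other macrophage surface genes, 7 rose and 9 fell in EPM (median -0.18) and 9 rose and 9 fell in BMDM (median -0.04). Axl, a receptor kinase for apoptotic cells bridged by Gas6, rose 4.82-fold in EPM and 7.04-fold in BMDM, and Siglec1, the sialic acid receptor of marginal-zone and lymph node macrophages, 4.76-fold and 6.03-fold. The integrin gene Itgax fell from 13.73 and 13.57 to 12.02 and 12.03 in EPM, the chemokine receptor gene Cx3cr1 from 9.39 and 9.43 to 7.67 and 7.70 in BMDM, and the tetraspanin Cd9 fell in both (-1.38 and -1.22). The median in EPM was 0.01 with loess only and that in BMDM 0.14 in the authors' table.

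Of 14 ligands, adaptors and binding partners of these receptors, 5 rose and 8 fell in EPM (median -0.52) and 6 rose and 5 fell in BMDM (median 0.11, and -0.32 over those well above background in all 24 channels). Hp, the gene for haptoglobin, whose complex with haemoglobin is the ligand of Cd163, went from 9.72 and 9.92 to 12.47 and 12.50 in EPM and from 8.33 and 8.29 to 12.19 and 12.45 in BMDM, 6.33-fold and 16.1-fold. Thbs1, thrombospondin and a Cd36 ligand, rose 5.53-fold and 9.86-fold. Gas6, the Axl ligand, fell in both (-2.18 and -2.59), the fatty acid binding protein gene Fabp4 fell by 2.31 in EPM, and the lipase gene Lpl fell by 1.62 in BMDM. Csf1, which encodes M-CSF, rose by 0.76 in EPM and by 1.73 in BMDM; it was named after its values were seen, as the ligand of Csf1r.

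Of 14 transcription factors of the macrophage lineage, 3 rose and 6 fell in EPM (median -0.06) and 6 rose and 5 fell in BMDM (median 0.12). Cebpb rose 1.83-fold in EPM and 2.39-fold in BMDM, and Nr1h3, the oxysterol receptor LXR alpha, 1.56-fold and 3.58-fold. With array means as samples Cebpb gave 0.48 in EPM and 0.91 in BMDM and Nr1h3 0.66 in EPM, and these calls were lost. Pparg, a fatty acid receptor known to activate Cd36, fell from 12.70 and 12.71 to 9.84 and 9.80 in EPM and from 10.53 and 10.58 to 9.17 and 9.18 in BMDM (-2.89 and -1.38). Cebpa fell in both (-1.71 and -3.04). The medians in EPM and BMDM changed sign with loess only, to 0.07 and -0.03, that in EPM also in the authors' table (0.07) and over those well above background in all 24 channels (0.03), and that in BMDM with array means (-0.06).

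Over the 12 group means, each member's pattern was compared with that of every other gene tested, as a description. The closest genes were Aif1 for Marco (r 0.997), the Fc receptor gene Fcgr1 for Msr1 (0.998), Trf, which encodes transferrin, for Cd36 (0.999), Psma8 for Mrc1 (0.994), S100a4 for Stab1 (0.998) with Gas6 next (0.996), Epor for Scarb1 (0.995), Cd63 for Cd68 (0.999), Plxnb2 for Csf1r (0.998), Cd48 for Emr1 (0.995) and Slco1c1 for Cd163 (0.946). Among the members the closest pair was Cd36 and Cd68 (0.992), then Stab1 and Csf1r (0.987) and Mrc1 and Stab1 (0.982), and Marco and Cd163 were the least alike (0.281). These correlations share the large step between macrophages and B cells, and Cd163 spans little above background.

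Promoter sequences are shown for Marco, which rose in EPM, and for Mrc1 and Stab1, which fell together. RefSeq promoters on GRCm38.p6 matched 6 of the 10 members (Marco, Cd36, Mrc1, Stab1, Cd68 and Cd163), and the 250 bases before each start were searched. The motif GAGGAA, the core bound by the macrophage factor PU.1, was looked for on both strands and occurs in 23.3% of 32851 such promoters. It matched at 1 place in Marco, 3 in Mrc1, 1 in Stab1, 1 in Cd68 and none in Cd36 or Cd163. TGANTCA (AP-1-type, both strands, 6.75% of promoters) matched at 2 places in Cd68, and GGANTTTCC (NF-kB-type, both strands, 1.07%), GAAANNGAA (interferon-type, both strands, 7.13%) and TATAAA (1 strand, 7.59%) at none of the 6. A match describes letters only. The windows are chr1:120505025-120505274 on the minus strand for Marco, chr2:14229164-14229413 on the plus strand for Mrc1 and chr14:31168642-31168891 on the minus strand for Stab1, written 5′ to 3′ with GAGGAA or its complement TTCCTC in capitals.
Marco: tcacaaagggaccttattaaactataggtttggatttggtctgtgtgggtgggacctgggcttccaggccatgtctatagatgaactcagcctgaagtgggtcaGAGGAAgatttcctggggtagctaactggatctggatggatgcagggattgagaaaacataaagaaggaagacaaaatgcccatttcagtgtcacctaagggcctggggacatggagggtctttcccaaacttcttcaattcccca
Mrc1: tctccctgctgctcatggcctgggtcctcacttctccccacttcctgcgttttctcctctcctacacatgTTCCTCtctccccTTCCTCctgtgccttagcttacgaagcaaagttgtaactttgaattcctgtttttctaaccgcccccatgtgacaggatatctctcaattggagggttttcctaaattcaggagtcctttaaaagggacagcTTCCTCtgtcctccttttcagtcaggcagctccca
Stab1: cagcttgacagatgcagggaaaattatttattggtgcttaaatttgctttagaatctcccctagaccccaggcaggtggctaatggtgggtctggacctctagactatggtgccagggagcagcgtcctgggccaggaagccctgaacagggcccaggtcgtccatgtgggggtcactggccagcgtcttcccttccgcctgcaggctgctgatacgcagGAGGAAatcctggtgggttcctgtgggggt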

How the data were processed

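RNA of 24 samples was hybridized in pairs to 12 Agilent arrays and read with Agilent Feature Extraction 9.5.3.1. The authors' deposited table gives an intensity per probe, normalized by a method it does not state, and served as an alternative. From the scanner files, signals were background corrected (normexp, offset 50), normalized by loess within and by average-intensity quantiles between arrays, and read as single channels (limma 3.58.1, R 4.3.3, statmod 1.5.0, data.table version 1.17.8). Of 57.4 to 65% of probes well above background per channel, those so in both channels of a group were kept. The brightest probe stood for a gene. Dye differences correlated between arrays (r 0.26 to 0.63 over 66 pairs), so the dye pairs channels, and it was fitted as a block in an alternative. limma fitted all 12 groups (12 residual degrees of freedom) and p-values were adjusted over all genes (Benjamini-Hochberg). The calls were tested on simulated data. Comparisons that use the same control group share its channels. Alternatives changed the offset, signal, normalization, filter, probe, block, samples fitted, replication unit, threshold, centring and B cell labels. Beside the members and the 4 control genes, the text names from each list and each macrophage type up to 2 called genes with the largest rise and 2 with the largest decrease at 12 h, and for each member the genes of closest pattern. Of the transcription factors listed at first, 1 is not reported here and was left out of its list and of this choice. Members and lists were chosen with earlier results of these data known.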

Additional observations from a re-analysis of the deposited data

Results flagged for a closer look

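For 7 members the 12 h response to KLA differed between EPM and BMDM in limma's test of the difference itself, given here as the EPM change minus the BMDM change on the log2 scale. The values were 2.16 for Marco, 1.15 for Emr1, 1.03 for Stab1, 0.93 for Mrc1 and 0.87 for Csf1r. They were -0.68 for Cd36 and -0.25 for Msr1. With array means as samples none of the 7 was called (Marco 1.88, adjusted p = 0.184, and Stab1 0.53, adjusted p = 0.715), and the Msr1 call was lost also with an offset of 16, with processed signals and with loess only. Marco rose in EPM, where its control level was 11.28 and 11.16, and was not called in BMDM, where its control level was 16.50 and 16.40. Whether Marco could read higher there was not tested. In BMDM it was called higher by limma with loess only (0.41, adjusted p = 0.00593) and in the authors' table (0.64, adjusted p = 0.000241). The other probes of Emr1, Stab1 and Cd36 gave 1.02, 0.31 and -0.64, each called, while those of Csf1r gave 0.93 (called) and 0.36 (not called) and those of Msr1 -0.81 (called) and 0.18 (not called). The stromal markers were summed to 95300 and 84800 in EPM with DMSO for 12 h and to 79400 and 76600 with KLA for 12 h, against 5650 and 5570 and 5750 and 5990 in BMDM, and their part in these differences was not tested. Cell type and slide cannot be told apart.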

How the results depend on the processing

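Of 1422 member values under the alternatives, 1309 kept their direction and side of the threshold, 76 lost the call, 22 gained one and 15 turned direction; of 792 values of the other named genes 763 kept both, 14 lost the call, all with array means, 8 gained one (Isg20 7 times, in EPM at 1 h or in B cells, and Tnf once in B cells) and 7 turned. The 14 were Tnf, Il1b and Isg20 at 1 h in BMDM, Cd9, Cebpb, Itgax, Nr1h3 and Thbs1 in EPM, Cd9, Cebpb, Cx3cr1, Mgl1 and Tnf in BMDM and Cxcl10 in B cells at 12 h. Leaving out 1 channel at a time kept 502 of 520 member values (17 lost a call, 1 gained one) and all 256 of the other named genes, with a lone channel assumed to vary like the other groups. The cause was not tested for any result that changed below, except where fewer genes or samples entered or the B cell columns were checked. In B cells the authors' columns named KLA 1 h and DMSO 12 h matched the scanner channels of the other condition (r 0.96 to 0.97). Their table and the exchange thus set the same channels against each other there.

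In these sentences counts are members called. In EPM at 1 h, 3 became 1 with loess only, 1 in the authors' table (Cd163, higher) and 0 with array means (0 at an unadjusted p under 0.05 in limma), and Cd68 turned to 0.02 in the authors' table. In BMDM at 1 h, 5 became 1 with processed signals, 0 with loess only and 0 in the authors' table (1 at an unadjusted p under 0.05 in each), 3 with the filter of all 24 channels, 0 with array means (0 unadjusted) and 2 at a threshold of 0.01, and the other Emr1 probe gave 0.01. At 12 h, EPM went from 10 to 5 with the filter of all 24 channels, which only 5 members pass, and to 4 with array means, and BMDM from 8 to 4 and 4. Emr1 in BMDM turned to 0.10 with loess only, 0.32 in the authors' table and 0.27 with its other probe. Marco in BMDM gained a call with loess only (0.41) and in the authors' table (0.64). Of all genes in BMDM at 1 h, processed signals called 1944 higher and 3008 lower of 17337, against 1903 and 3053 of 17343 with the settings used above. The filter of all 24 channels called 1256 and 2558 of 11672 there, and the threshold of 0.01 called 1329 and 1959 of 17343. The comparisons of EPM with BMDM, EPM with B cells and BMDM with B cells went from 10 to 5 each with that filter, and to 7, 10 and 9 with array means. The difference in 12 h change went from 7 to 3 with it and to 0 with array means (3 at an unadjusted p under 0.05), and an Msr1 probe turned to 0.18.

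In B cells at 1 h the authors' table called 3989 genes higher and 3189 lower of 17152. Members called there went from 0 to 6 in that table and to 6 with labels exchanged. Cd68 turned to -0.42 in each, Emr1 to 3.47 and 3.37, and Scarb1 to -0.75 and -0.79, and among the control genes Cxcl10 to -0.62 and -0.57, Il1b to -1.06 and Tnf to -1.06 with the exchange. At 12 h, 1 became 2 with processed signals, 4 in the authors' table, 4 with labels exchanged and 0 with array means (0 unadjusted). Emr1 turned to 3.43 and 3.17, and with the exchange Cd36 to -0.13, Il1b to -1.03 and Tnf to -0.82 (-0.10 with array means). All genes called went from 897 to 8218 at 1 h and from 918 to 8526 at 12 h with the exchange, and with 1 channel left out to as few as 333 (KLA 1 h Cy5) and 593 (KLA 12 h Cy5). With the dye as a replicate block, 2 members were called in B cells at 12 h (Emr1 added, -0.27, adjusted p = 0.0243). The difference in change had 1 at 1 h (Stab1 at 0.26, adjusted p = 0.0356) and 8 at 12 h (Cd163 added, -0.25, adjusted p = 0.0364). Genes called rose too, in this order to 1937, 3102, and 4791 higher and 5235 lower.

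Leaving out 1 channel gave 2 to 3 calls in EPM and 1 to 4 in BMDM at 1 h, 9 to 10 and 7 to 8 at 12 h, 0 to 0 and 1 to 1 in B cells, 10 to 10 for EPM against BMDM and against B cells, 9 to 10 for BMDM against B cells, and 0 to 0 and 7 to 8 for the differences in change at 1 h and 12 h.

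With loess only, the median over all genes shifted to -0.14 in BMDM at 12 h and to 0.17 for the difference in 12 h change, and the share of higher calls among all calls went from 36.3% to 46.4% in EPM and from 44% to 29.8% in BMDM at 12 h, from 48.5% to 76.6% for that difference, from 52.6% to 15.7% in B cells at 1 h, from 49.2% to 38.1% for EPM against BMDM, and from 50% to 60.7% and from 51.1% to 66.4% for EPM and BMDM against B cells. Array means, which take the 2 control arrays of a cell type as replicates, called 163 genes in EPM and 100 in BMDM at 1 h and 1998 and 3650 at 12 h, fewer than with channels as samples. Levels near background, as for Cd163 and for Msr1, Mrc1, Il1b and Cxcl10 in B cells, limit folds to bounds.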

Other observations

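Markers used to watch other cells also changed with KLA. Over all genes tested at 12 h, 19.6% were called higher and 34.3% lower in EPM, and 28.6% and 36.3% in BMDM. No marker list is read as differing from these shares. In EPM at 12 h, 5 of 6 stromal and mesothelial markers were called lower and 0 higher (0 higher at an unadjusted p under 0.05 in limma, median -0.57), while in BMDM 2 were called higher and 0 lower (0 lower unadjusted, median 0.02). Of 7 neutrophil markers, 4 were called higher and 1 lower in BMDM at 12 h (median 0.88), and 2 and 1 in EPM (median -0.04). Among the 10 macrophage markers outside the members, 3 rose and 6 fell in EPM and 2 rose and 3 fell in BMDM at 12 h, with medians of -0.52 and -0.19. The Fc receptor gene Fcgr1 had group means of 13.70 with DMSO and 16.52 with KLA in EPM at 12 h, and Fcgr3 of 14.44 and 12.98.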
